A study of Mus musculus with 8 samples.

Results

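A set of 10 genes that mark alveolar type 2 cells without coding for a surfactant protein was followed in club cell preparations of 8 mouse pools. It holds Lamp3, Egfl6, Mlc1, Slc34a2, Napsa, Chil1, Kcnj15, Fabp12, Pla2g1b and Rab27a, out of 22180 genes that a probe set with a single gene symbol represents. All 10 were matched by symbol, each to 1 probe set, and all 10 had a mean signal above the level filter. They were chosen by name with their own log2 differences between the 4 Atgl KO/cTg and the 4 wt/cTg pools already known. These differences are therefore given as a description, and the thresholds beside them as a place in the whole table.

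The study compared Atgl KO/cTg with wt/cTg mice, 4 pools of each genotype. Atgl, now named Pnpla2, encodes adipose triglyceride lipase, the enzyme that opens the breakdown of stored triglyceride. Every pool carries cTg, which the labels neither expand nor describe by promoter or cell type. The Atgl KO/cTg pools held 4 mice each, aged 44 to 46, 43 to 45, 38 to 43 and 42 to 45 weeks in replicates 1 to 4. The wt/cTg pools held 3, 4, 4 and 3 mice, aged 44 to 45, 41 to 48, 42 to 44 and 42 weeks. Animals ate standard chow and received no treatment. Replicates are numbered by accession only, with no pairing meant. Since a replicate is 1 pool, p-values set the genotype difference against the variation among pools, and variation between single mice is not estimated.

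Type 2 cells line the alveoli beside the flat type 1 cells. They store surfactant in lamellar bodies, which are lysosome-related organelles, and release it by regulated exocytosis. The products of the genes followed here differ in what they do. Lamp3 encodes a glycoprotein of the lamellar body membrane, and Napsa an aspartic protease that trims the precursors of surfactant proteins. Slc34a2 encodes a sodium-dependent phosphate transporter of the apical membrane, Kcnj15 an inwardly rectifying potassium channel, and Mlc1 a membrane protein best known from astrocytes. Rab27a encodes a small GTPase that docks secretory vesicles. Egfl6 encodes a secreted protein of the extracellular matrix with epidermal growth factor repeats, and Chil1 a secreted chitinase-like protein. Pla2g1b encodes a secreted phospholipase A2, and Fabp12 a member of the intracellular fatty acid binding proteins. Several are not restricted to type 2 cells: Lamp3 is also made by mature dendritic cells, and Chil1 and Rab27a by leukocytes.

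The labels call the preparations club cells, and the club cell marker Scgb1a1 had mean log2 signals of 12.92 (Atgl KO/cTg) and 12.99 (wt/cTg). Type 2 transcripts gave signal beside it. Sftpc, surfactant protein C, read 12.53 and 12.93, Sftpb 11.89 and 12.10, and Abca3, the lipid pump of the lamellar body, 8.39 and 8.75. In such bulk RNA, fewer type 2 cells in a pool and less RNA of these genes per cell cannot be told apart. Pnpla2 itself read 6.99, 7.16, 7.09 and 6.70 in the Atgl KO/cTg pools and 8.70, 8.63, 8.62 and 8.86 in the wt/cTg pools, a difference of -1.72 (SE 0.11). In wt/cTg replicate 4, Xist read 3.75 against 9.34 to 10.67 in the other 7 pools. The Y-linked genes were highest in that pool. There Eif2s3y read 7.996 (6.03 to 7.17 elsewhere), Kdm5d 7.05 (5.27 to 6.51) and Uty 5.92 (4.18 to 5.51).

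Promoter windows of RefSeq (GRCm38.p6, 250 bases before to 50 after a start) were found for 8 of the 10 genes, all but Napsa and Fabp12. The windows of the 4 of these genes with the lowest differences are printed, with Rab27a, whose genotype means lay closest, as a contrast. Lamp3 lies at chr16:19706316-19706615 on the minus strand, Egfl6 at chrX:166585667-166585966 (minus), Mlc1 at chr15:88978504-88978803 (minus), Slc34a2 at chr5:53049103-53049402 (plus) and Rab27a at chr9:73044560-73044859 (plus). The Mlc1 window starts inside the annotated gene (chr15:88955884-88982693), and a further Rab27a window lies at chr9:73063898-73064197. Capitals mark matches, on either strand, to 7 motifs: the NKX2-1 core (letters CTCAAG), the ETS core (letters CCGGAAG), a C/EBP motif (letters TTGCNNAA), a FOXA motif (letters TGTTTAC), a motif of the GATA factors (whose letters are AGATAA), the E-box (letters CACGTG) and the TATA box (whose letters are TATAAA).
Lamp3: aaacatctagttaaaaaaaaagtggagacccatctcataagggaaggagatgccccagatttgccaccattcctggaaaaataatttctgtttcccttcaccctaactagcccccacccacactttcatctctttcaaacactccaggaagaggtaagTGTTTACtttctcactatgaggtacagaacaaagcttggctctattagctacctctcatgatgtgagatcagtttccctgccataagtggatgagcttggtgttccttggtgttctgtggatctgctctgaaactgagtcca
Egfl6: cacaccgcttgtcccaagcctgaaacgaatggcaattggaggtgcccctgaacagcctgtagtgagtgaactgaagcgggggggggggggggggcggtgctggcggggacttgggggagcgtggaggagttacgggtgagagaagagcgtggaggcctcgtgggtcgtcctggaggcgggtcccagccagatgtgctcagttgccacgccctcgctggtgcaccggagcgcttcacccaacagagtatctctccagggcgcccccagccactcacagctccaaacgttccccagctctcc
Mlc1: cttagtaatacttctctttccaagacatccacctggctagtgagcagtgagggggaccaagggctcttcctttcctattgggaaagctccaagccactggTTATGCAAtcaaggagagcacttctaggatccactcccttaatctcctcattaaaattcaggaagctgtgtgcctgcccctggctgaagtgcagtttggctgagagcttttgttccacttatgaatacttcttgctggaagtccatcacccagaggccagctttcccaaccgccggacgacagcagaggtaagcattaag
Slc34a2: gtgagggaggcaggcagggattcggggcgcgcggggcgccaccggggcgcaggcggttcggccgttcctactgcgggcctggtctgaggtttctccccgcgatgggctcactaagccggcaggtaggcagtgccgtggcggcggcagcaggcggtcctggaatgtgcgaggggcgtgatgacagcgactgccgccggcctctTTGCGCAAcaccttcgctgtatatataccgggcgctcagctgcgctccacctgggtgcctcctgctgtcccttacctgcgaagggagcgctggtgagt
Rab27a: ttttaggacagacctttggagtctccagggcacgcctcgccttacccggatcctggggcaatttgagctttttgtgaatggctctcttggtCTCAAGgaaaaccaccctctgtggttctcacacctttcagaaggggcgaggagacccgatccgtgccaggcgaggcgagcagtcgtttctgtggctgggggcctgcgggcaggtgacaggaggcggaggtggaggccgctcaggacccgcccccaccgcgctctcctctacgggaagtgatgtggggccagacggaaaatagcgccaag

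No motif was found in all 4 windows of the genes with the lowest differences. The Lamp3 window held 1 FOXA match, found in 3.65% of 32851 windows. The Mlc1 and Slc34a2 windows each held 1 C/EBP match (10.8% of windows), the Rab27a window shown held 1 NKX2-1 core (15.9%), and the Egfl6 window held none of the 7. The ETS core was in none of the 5 windows, against 8.86% of all, and no window printed held more than 1 match. Of the windows not printed, that of Kcnj15, whose difference was 0.28, also held 1 C/EBP match, with 1 GATA motif and 1 TATA box. C/EBP matches were therefore not limited to genes with a lower mean in Atgl KO/cTg. The Chil1 and Pla2g1b windows held none of the 7, and the further Rab27a window held 1 E-box. Base composition also differed: Lamp3 had 43.7% G or C and 0 CG pairs, Mlc1 49.7% and 3, Egfl6 65.3% and 17, Slc34a2 68.7% and 30, and Rab27a 61.3% and 18. The median window had 52.7% and 7 CG pairs.

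Across the genotypes the 10 genes separated widely. The log2 differences, Atgl KO/cTg minus wt/cTg, ran from -1.53 to 0.28, with a median of -0.59 against -0.0073 over the 13112 genes tested. Differences of 5 genes lay between -1.53 and -0.76 (Lamp3, Egfl6, Mlc1, Slc34a2 and Napsa), those of Fabp12 and Pla2g1b at -0.42 and -0.27, and those of Rab27a, Chil1 and Kcnj15 between -0.0045 and 0.28. In all 8 of 10 lay below 0, as did 52.2% of all genes tested. The threshold used throughout is an adjusted p of 0.05 in a limma fit over all genes tested, and 3 of the 10 lay past it, all lower in Atgl KO/cTg, against 0.0839% of all genes. The first gene inside it was Slc34a2 (limma adjusted p = 0.0477) and the first outside was Napsa (limma adjusted p = 0.0973). In 4 of the 10, every Atgl KO/cTg pool lay below every wt/cTg pool, as in 2.62% of all genes. Since the genes were named from this contrast, nothing is read from these shares. The count of 3 was 0 with runs of neighbouring mouse numbers, as the sample titles give them, as a block, after quantile normalization or without a variance trend, and it depended on single pools. It was 0 without any 1 of Atgl KO/cTg replicates 1, 3 and 4 or wt/cTg replicates 2, 3 and 4; it was 4 when Atgl KO/cTg replicate 2 was omitted, or 5 when wt/cTg replicate 1 was.

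**Figure D1:**
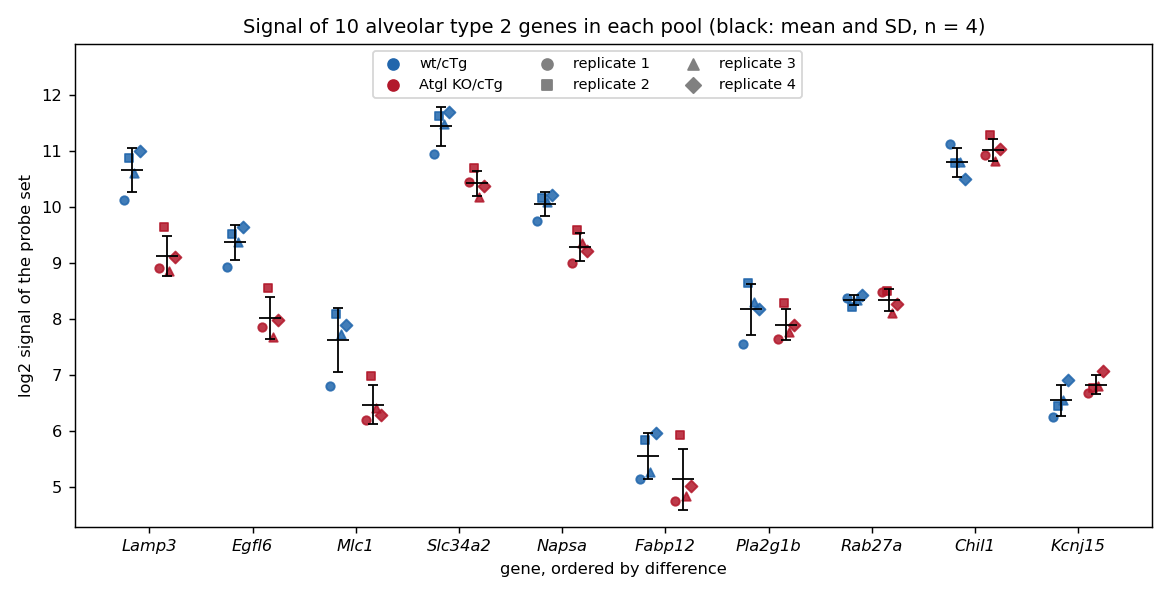
The log2 signal (vertical axis) of each of the 10 genes (horizontal axis, ordered by difference) is plotted for every pool, wt/cTg in blue and Atgl KO/cTg in red, with marker shapes for replicates and black bars for mean and SD (n = 4). The groups stand apart for Lamp3, Egfl6, Slc34a2 and Napsa and overlap for the other 6 genes.

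Of the lamellar body genes, Lamp3 (probe set 17329046, gene at chr16:19653381-19706365) had the lowest difference of the 10. The Atgl KO/cTg pools read 8.91, 9.63, 8.85 and 9.10, and the wt/cTg pools 10.12, 10.87, 10.61 and 11.002. The groups did not overlap, with a gap of 0.48 between the nearest pools, Atgl KO/cTg replicate 2 below wt/cTg replicate 1. The means were 9.12 ± 0.36 and 10.65 ± 0.39 (SD, n = 4), a difference of -1.53 (SE 0.20) or 0.347 of the control signal. Of the 13112 genes tested 1, the knocked-out Pnpla2, lay lower. With each pool left out the difference ran from -1.70 to -1.41.

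Napsa (probe set 17477508, chr7:44572445-44586846), the protease of the same compartment, read 8.99, 9.59, 9.36 and 9.21 across Atgl KO/cTg pools and 9.74, 10.15, 10.09 and 10.22 in wt/cTg. These groups did not overlap either, by a margin of 0.15. The difference was -0.76 (SE 0.13), 0.590 of the control signal, and ran from -0.86 to -0.66 with each pool left out.

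Rab27a (probe set 17519282, chr9:73044810-73097623), which acts at vesicle docking, read 8.48, 8.50, 8.10 and 8.27 across Atgl KO/cTg pools and 8.38, 8.22, 8.34 and 8.43 in wt/cTg. All 4 wt/cTg values lay within the Atgl KO/cTg range. The difference was -0.0045 (SE 0.10, 95% interval -0.23 to 0.22), and its sign turned in 7 of 19 other settings, which gave -0.06 to 0.07. The interval included the difference of Sftpb (-0.21) and not that of Napsa (-0.76).

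Among the channel and transporter genes, Slc34a2 (probe set 17437459, chr5:53049353-53071664) read 10.44, 10.70, 10.17 and 10.37 across Atgl KO/cTg pools and 10.94, 11.62, 11.47 and 11.70 in wt/cTg. No Atgl KO/cTg pool reached the lowest wt/cTg pool, replicate 1. The difference was -1.01 (SE 0.16), 0.496 of the control signal, and -1.18 to -0.92 with each pool left out. Kcnj15 (probe set 17327450, chr16:95257558-95300260) had the higher mean in the knockout pools, with 6.68, 6.77, 6.81 and 7.08 across Atgl KO/cTg pools and 6.26, 6.46, 6.56 and 6.92 in wt/cTg. Its groups overlapped through wt/cTg replicate 4, and the difference was 0.28 (SE 0.15, 95% interval -0.04 to 0.61).

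Mlc1 (probe set 17320225, chr15:88955884-88982693) read 6.20, 6.99, 6.42 and 6.30 across Atgl KO/cTg pools and 6.81, 8.09, 7.74 and 7.89 in wt/cTg. The groups overlapped only where wt/cTg replicate 1 lay below Atgl KO/cTg replicate 2. The difference of -1.15 (SE 0.26, 0.450 of the control signal) was larger in size than that of Slc34a2 and was not past the threshold (limma adjusted p = 0.255), with an SD of 0.56 among wt/cTg pools against 0.34 for Slc34a2. Of 19 other settings 1 brought Mlc1 past the threshold, the omission of wt/cTg replicate 1 (-1.42, limma adjusted p = 0.0173). The omission of wt/cTg replicate 2 gave -0.9998 (limma adjusted p = 0.621).

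Of the secreted proteins, Egfl6 (probe set 17546055, chrX:166523007-166585716) read 7.85, 8.56, 7.68 and 7.98 across Atgl KO/cTg pools and 8.93, 9.52, 9.37 and 9.64 in wt/cTg. The groups lay 0.38 apart. The difference was -1.35 (SE 0.19), 0.393 of the control signal. Egfl6 is X-linked and the pool with low Xist had its highest value, as it also had for Lamp3, Slc34a2, Napsa and Fabp12, which are not X-linked. With a sex score as a covariate (Xist less the average of Uty, Kdm5d and Eif2s3y, which are Y-linked) the difference was -1.31 (limma adjusted p = 0.0496), and without that pool, wt/cTg replicate 4, it was -1.26 (limma adjusted p = 0.147). With the same covariate Lamp3 was at -1.47 (limma adjusted p = 0.0436) and Slc34a2 at -0.97 (limma adjusted p = 0.0677). Without wt/cTg replicate 4 Lamp3 was at -1.41 (limma adjusted p = 0.110) and Slc34a2 at -0.92 (limma adjusted p = 0.163).

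Chil1 (probe set 17217399, chr1:134182156-134190031) read 10.93, 11.28, 10.81 and 11.02 across Atgl KO/cTg pools and 11.11, 10.78, 10.79 and 10.49 in wt/cTg. Its highest wt/cTg pool was replicate 1, the pool that was lowest for Lamp3, Egfl6, Mlc1, Slc34a2 and Napsa. The difference was 0.21 (SE 0.13, 95% interval -0.07 to 0.50). Pla2g1b (probe set 17441160, chr5:115466142-115474722) read 7.64, 8.29, 7.77 and 7.90 across Atgl KO/cTg pools and 7.56, 8.65, 8.30 and 8.18 in wt/cTg, so that the lowest of all 8 pools was a wt/cTg pool. Its difference was -0.27 (SE 0.21), and ran from -0.47 without wt/cTg replicate 1 to -0.11 without wt/cTg replicate 2.

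Fabp12 (probe set 17404098, chr3:10244209-10301515) had a mean signal of 5.35, just above the level filter at 5.18. It read 4.76, 5.94, 4.86 and 5.02 across Atgl KO/cTg pools and 5.15, 5.85, 5.28 and 5.97 in wt/cTg. Atgl KO/cTg replicate 2 stood with the highest wt/cTg pools, and the other 3 Atgl KO/cTg pools lay below all 4 wt/cTg pools. The difference was -0.42 (SE 0.27, 95% interval -1.004 to 0.17), the widest interval of the 10 genes. It ran from -0.68 without Atgl KO/cTg replicate 2 to -0.28 without wt/cTg replicate 4.

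Within each genotype the same pool lay at one end for most of the 10 genes, which is a comparison that genotype does not enter. The remaining pools were not ordered alike. The order of pools therefore means here only the highest Atgl KO/cTg pool and the lowest wt/cTg pool. Atgl KO/cTg replicate 2 was the highest of its group for 9 of 10 genes, all but Kcnj15. The lowest wt/cTg pool was replicate 1 for 8 of 10, all but Chil1 and Rab27a. For a single side the share over all genes was not computed, so nothing is read from these counts alone. Both sides together held for 7 genes, against 5.03% of all genes tested. These 7 were Lamp3, Egfl6, Mlc1, Slc34a2, Napsa, Fabp12 and Pla2g1b, so 2 genes with small genotype differences shared the order of pools with the 5 of larger difference. Lamp3 in Atgl KO/cTg replicate 2 lay 0.51 above its group mean, Egfl6 0.54, Mlc1 0.51 and Fabp12 0.80. In wt/cTg replicate 1, Mlc1 lay at -0.82, Pla2g1b at -0.61 and Lamp3 at -0.53 from the group mean, and Chil1 at 0.32. This order of pools was noticed in the data and was not tested.

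**Figure D2:**
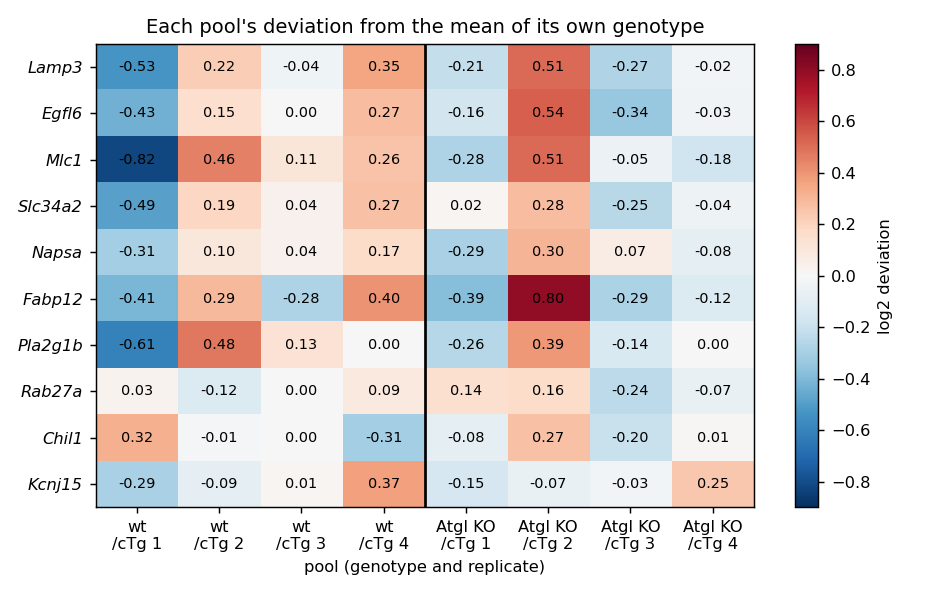
Each cell gives the log2 deviation of 1 pool (columns, genotype and replicate) from the mean of its own genotype for 1 of the 10 genes (rows, ordered by difference), with red above and blue below. Atgl KO/cTg replicate 2 is red and wt/cTg replicate 1 blue from Lamp3 down to Pla2g1b, while Chil1 is positive (0.32) in wt/cTg replicate 1.

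Marker lists were examined for the same order of pools. Of 37 other type 2 genes tested, 12 had both Atgl KO/cTg replicate 2 highest and wt/cTg replicate 1 lowest, against 5.03% of all genes tested. So had 0 of 20 club cell markers, 0 of 15 type 1 markers, 0 of 11 epithelial markers and 1 of 15 ciliated markers. In lists of this size counts of 0 or 1 lie near the share of all genes, so no lack of the order is read from them. The ciliated markers shared only the wt/cTg side, with replicate 1 lowest for 14 of 15. Neutrophil markers had Atgl KO/cTg replicate 2 highest in 6 of 9. For a single side the share over all genes was not computed, so nothing is read from these counts. What these lists contribute to the order of the 10 genes was not tested.

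The series' design text mentions 4 sets that contrast the genotypes, and the labels do not name them. The mouse numbers in the titles fall into runs, of which 3 hold both genotypes, the first with 2 Atgl KO/cTg pools and 1 wt/cTg pool and the others with 1 of each. Within these runs Lamp3 differed by -0.84, -2.02 and -1.90, and Slc34a2 by -0.37, -1.45 and -1.32. Lamp3, Egfl6, Mlc1, Slc34a2 and Napsa lay below 0 in 3 of 3 runs. Fabp12, Pla2g1b and Rab27a did in 2, Chil1 in 1 and Kcnj15 in 0. The run with the smallest Lamp3 difference holds both pools that stood apart within their genotype, replicate 2 of Atgl KO/cTg with replicate 1 of wt/cTg. With the runs as a block in the fit 0 of the 10 genes lay past the threshold, and Lamp3 differed by -1.51 (limma adjusted p = 0.1).

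The genes whose profile over the 8 arrays was most like that of Lamp3 came mostly from the type 2 lists, with Nrn1 on none of them. Likeness was the root mean square distance between profiles, each centred on its own mean, so it includes the genotype step. The lists were chosen with earlier results of these data known, so nothing is read from their share among the nearest genes. Egfl6 was the nearest of all genes tested, at 0.108. Outside the set the nearest 5 were Hc, complement component C5 (0.129), Lgi3 (0.151), Bex2 (0.190), Nrn1 (0.217) and Bex4 (0.259). Of the others of the set, Mlc1 stood at rank 6 (0.256), Slc34a2 at 8, Napsa at 18, Fabp12 at 61 and Pla2g1b at 147. Rab27a, Kcnj15 and Chil1 stood at ranks 4813, 11920 and 12147.

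The other type 2 genes give the frame for this spread. Their list of 43 genes, chosen with earlier results known, had 37 tested, of which 35 lay below 0 (52.2% of all genes tested did) with a median of -0.41. An unadjusted p under 0.05 in limma was found for 26 of the 37, against 7.95% of all genes tested. In 16 every Atgl KO/cTg pool lay below every wt/cTg pool, as in 2.62% of all genes. In the fit over all genes 3 of the 37 passed, all lower in Atgl KO/cTg, against 0.0839% of all genes. Given how the list was chosen, nothing is read from these shares. With runs of mouse numbers as a block, after quantile normalization or without a variance trend 0 passed. Hc fell by 1.47 (SE 0.18; adjusted p = 0.0286 in limma), and Sftpc by 0.41 (SE 0.06; adjusted p = 0.0461). The transcription factor gene Etv5 fell by 1.01 (SE 0.13, limma adjusted p = 0.0294). The largest differences besides Hc were those of Bex2 (-1.44, limma adjusted p = 0.0899), Bex4 (-1.41, 0.0973) and Lgi3 (-1.25, 0.132), none past the threshold. Lysozyme Lyz2, named for its high signal, was at -0.06. The highest difference was that of Muc1, named after its values were seen, at 0.18. The range of the other type 2 genes, -1.47 to 0.18, thus covered nearly that of the 10 genes. The count of 3 was 0 without any 1 of Atgl KO/cTg replicates 1, 3 and 4 or wt/cTg replicates 2, 3 and 4; it was 5 when Atgl KO/cTg replicate 2 was omitted, or 10 when wt/cTg replicate 1 was.

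**Figure D3:**
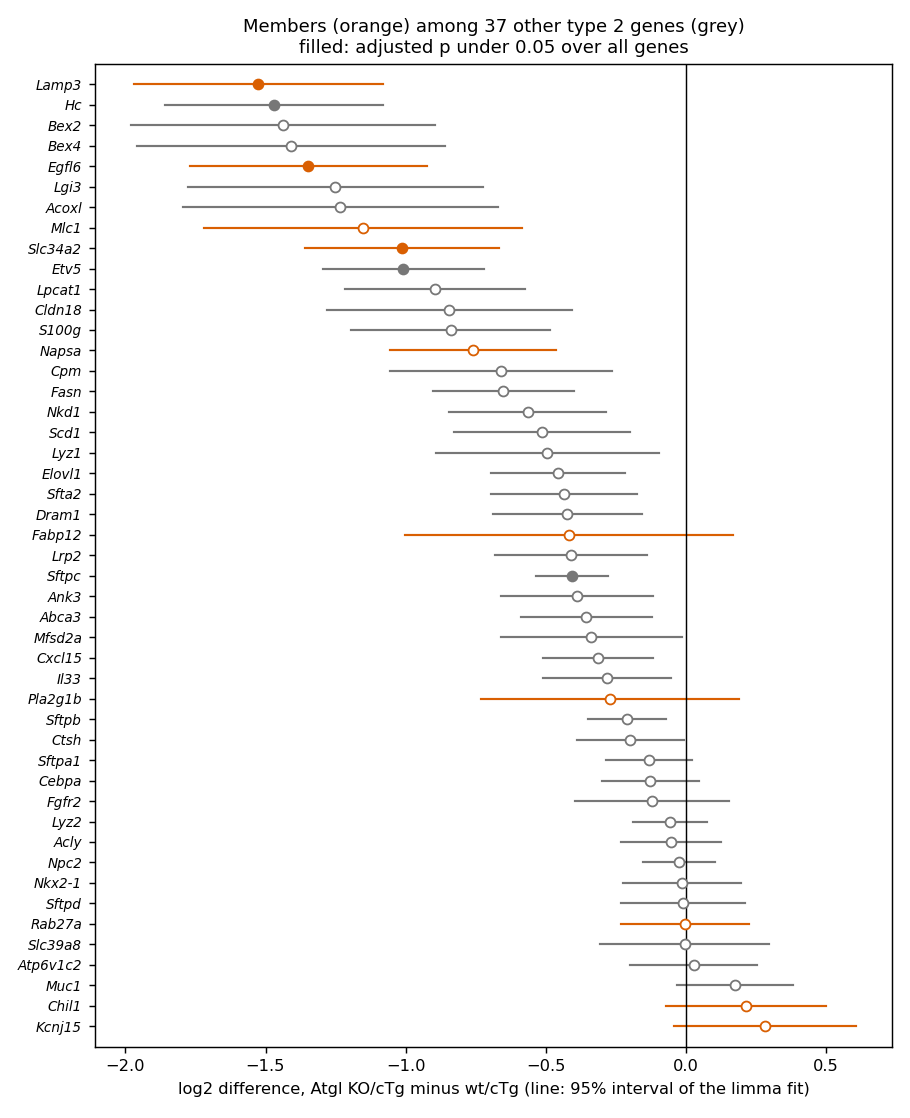
Log2 differences (horizontal axis, Atgl KO/cTg minus wt/cTg) of the 10 genes (orange) and 37 other type 2 genes (grey) are ordered from lowest at the top to highest at the bottom, with 95% intervals of the limma fit and filled points for adjusted p under 0.05 over all genes. The 10 genes take both ends of the order, Lamp3 at -1.53 and Kcnj15 at 0.28.

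Among the 10 genes, those with larger and those with smaller differences overlapped in signal strength. Genes with differences between -1.53 and -0.76 had mean signals from 7.05 (Mlc1) to 10.93 (Slc34a2), and the other 5 from 5.35 (Fabp12) to 10.90 (Chil1). Whether signal strength bears on the size of the differences was not tested. Over all 47 type 2 genes tested, the 7 with a mean above 11, none of them among the 10, had a median difference of -0.13 (range -0.41 to 0.18). The 15 genes between 9 and 11 had a median of -0.51, the 19 between 7 and 9 of -0.36 and the 6 at or below 7 of -0.49. The highest signals on the arrays were 13.38 to 13.54. Signals of different probe sets are not abundances on one scale, so these classes describe the probe sets. With 50 added to each value on the linear scale, which was added once the values were known, the differences of Mlc1 (-0.84) and Fabp12 (-0.18) were smaller in size and those of Lamp3 (-1.44) and Slc34a2 (-0.99) moved little.

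**Figure D4:**
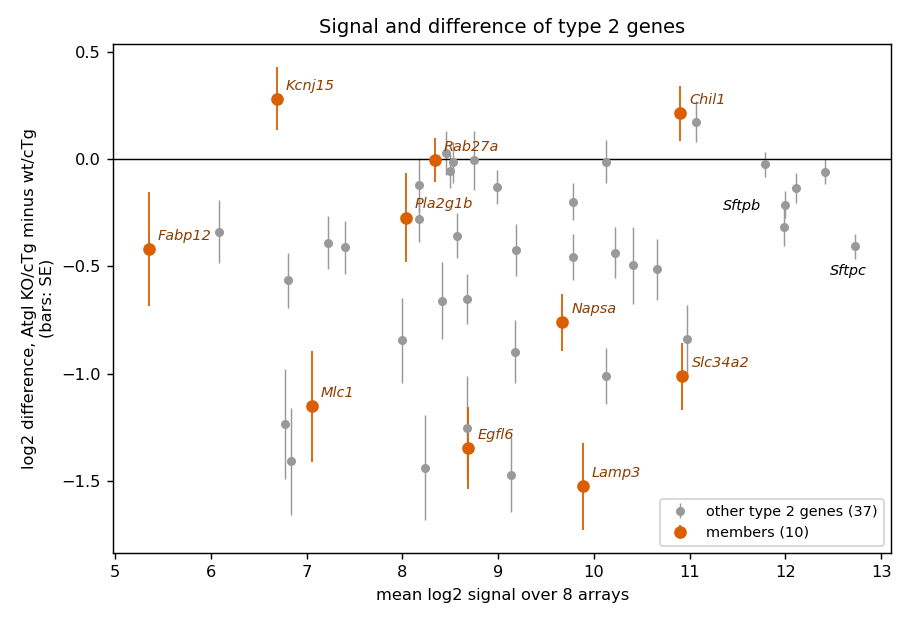
The log2 difference (vertical axis, with SE) is plotted against the mean log2 signal over 8 arrays (horizontal axis) for the 10 genes (orange, named) and 37 other type 2 genes (grey). The genes near 0, such as Rab27a, Chil1 and Kcnj15, lie across the same signals as Mlc1, Egfl6, Lamp3 and Slc34a2.

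Genes that work with Rab27a and in lysosome-related organelles, such as its effectors, tethers and membrane fusion proteins, were taken as a list of 42, of which 35 were tested. In the limma fit 0 passed in either direction, and 3 had an unadjusted p under 0.05 (7.95% of all genes tested did). Differences below 0 were found for 22 (52.2% of all genes tested), with a median of -0.03. Mlph, a Rab27a effector, was at 0.56 and Adgrf5, a receptor that limits surfactant pools, at -0.48 (limma adjusted p = 0.435 and 0.446). Stx2 was at -0.22, Sytl1 at 0.25, and Vamp8 and Anxa2 at 0.04 and -0.05. Every alternative run, each pool left out included, also gave 0 past the threshold.

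Relatives of the 10 genes by protein family were taken as a list of 57, of which 33 were tested. In the limma fit 0 passed in either direction, and 3 had an unadjusted p under 0.05 (7.95% of all genes). Differences below 0 were found for 14 (52.2% of all genes tested), with a median of 0.05. Fabp1, a fatty acid binding protein, was at -0.65 (limma adjusted p = 0.547), Npnt, an extracellular matrix protein, at -0.45, Hepacam2 at -0.41 and Fabp7 at 0.43. Ctsd, a lysosomal aspartic protease like Napsa, was at 0.09, and Chil3, a chitinase-like protein of macrophages, at 0.25. Lamp1 and Lamp2, named after their values were seen, were at -0.02 and -0.10 beside the -1.53 of Lamp3. Every alternative run also gave 0 past the threshold.

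Markers of other cells lay on both sides of 0, and no gene of the lists that follow passed in the limma fit. Their counts of genes with an unadjusted p under 0.05 stand beside a share of 7.95% over all genes tested. Their counts by direction stand beside 6261 of 13112 genes tested above 0 and 52.2% below, and were not tested. Club cell markers lay above 0 in 16 of 20 (median 0.12, list means 10.997 to 11.14 across Atgl KO/cTg pools and 10.88 to 11.004 in wt/cTg, 7 with unadjusted p under 0.05). Epithelial markers lay above 0 in 10 of 11 (median 0.21, 8.76 to 9.01 and 8.59 to 8.77, 5 such), with Epcam at -0.11. Ciliated markers lay above 0 in 15 of 15 (median 0.23, 7.74 to 8.21 and 7.42 to 7.95, 3 such), with Foxj1 at 0.35. Type 1 markers lay below 0 in 14 of 15 (median -0.21, 8.07 to 8.41 and 8.27 to 9.04, 4 such), with Ager at -0.53, and wt/cTg replicate 4 had the list mean of 9.04. The lowest type 1 difference was that of Cldn18 (-0.84), named after its values were seen, which is also on the list of other type 2 genes. Genes of a transitional epithelial state lay above 0 in 13 of 16 (median 0.13, 8.47 to 8.59 and 8.37 to 8.55, 2 such), with Krt8 at 0.15.

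For the genes that leukocytes also make, mature dendritic cell markers lay above 0 in 6 of 10 (median 0.05, list means 7.25 to 7.59 across Atgl KO/cTg pools and 7.26 to 7.42 in wt/cTg, 1 with unadjusted p under 0.05), with Ccr7 at 0.29 where Lamp3 was at -1.53. Alveolar macrophage markers lay above 0 in 8 of 13 (median 0.02, 8.56 to 9.07 and 8.65 to 8.78, 3 such) and neutrophil markers in 9 of 9 (median 0.49, 7.70 to 8.57 and 7.49 to 8.10, 4 such). Pan-leukocyte markers lay above 0 in 3 of 8 (median -0.03, 9.99 to 10.26 and 9.996 to 10.22, 0 such), with Ptprc at -0.11. No defining marker could be called absent, since the table holds no detection calls. What these cells, or the club and other epithelial cells of the lists above, contribute to the 10 genes was not tested, Chil1, Rab27a and Kcnj15 included.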

How the data were processed

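Club cell RNA of 8 mouse pools was measured on an expression array. RNA came from a miRNeasy Micro kit, DNase step included, per the labels' protocols, and 50 ng was amplified with NuGEN Ovation Pico WTA and biotin-labelled. The authors deposited log2 signals, 1 per probe set and array (range 1.85 to 13.5, array medians 5.12 to 5.24), which were used as deposited. Software, background correction and normalization were not given in the sources used here. Precision is limited by the number of arrays.

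Of 41345 probe sets 23521 had 1 symbol in the platform annotation, 1814 several and 16010 none. The probe set with the highest mean stood for a gene (22180 genes), and 13112 with a mean above 5.18, the median of all probe sets, were tested. Array correlations were 0.965 to 0.985. limma 3.58.1 in R 4.3.3 (lmFit, eBayes with trend, two-sided, Benjamini-Hochberg over all genes tested, threshold 0.05) compared genotypes. On simulated data with 200 changed genes of 13112, in 10 runs of this comparison, 42.4%, 90.0% and 97.1% of changes of 0.5, 1 and 1.5 were recovered, with 5.44% false. The simulated noise was independent between genes, and in the real data 13 genes passed. These shares therefore check the procedure and do not give the recovery in the real data. The 10 genes, the lists and the motifs were chosen with earlier results of these data known. Named genes were the 10, those of the type 2, secretion and family lists that passed, had the 4 largest differences or the 2 highest signals, the 5 genes nearest Lamp3, and check genes. Alternatives are given in the closing section. Figures used matplotlib 3.10.9.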

Additional observations from a re-analysis of the deposited data

Results flagged for a closer look

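In 48 genes (the 10 genes, 37 other type 2 genes and Pnpla2) each genotype's 4 pools were searched for a value far from the rest, and 2 of 96 groups held one, where chance marks about 1 in 20 groups. Neither was a group of the 10 genes. Muc1 read 11.06 in Atgl KO/cTg replicate 3 and 11.18 in the next pool, a gap of 0.957 of the group's range. Sfta2, a secreted protein of type 2 cells, read 10.04 in wt/cTg replicate 1, the pool lowest for 8 of the 10 genes, and 10.54 in the next pool, a gap of 0.877 of the range.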

How the results depend on the processing

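Over 19 other settings (18 for Fabp12, which a mean signal above 6 left out), differences kept their sign for 9 of the 10 genes and turned for Rab27a: 0.017 after quantile normalization, 0.0080 with age and 0.013 with the sex score as a covariate, and -0.059 to 0.075 with each array left out. Without each array 0 to 5 of the 10 genes, 0 to 10 other type 2 genes and 1 to 25 of all genes passed. The main counts were 3, 3 and 13. After quantile normalization the counts were 0, 0 and 1, as without a variance trend. With runs of mouse numbers as a block they were 0, 0 and 3. Without a level filter 1 of the 10 genes and 7 of all passed, as with age as a covariate. With the sex score as a covariate 2 of the 10 genes, 4 other type 2 genes and 9 of all passed. Array weights gave 9 other type 2 genes and 23 in all, and median centring 7 other type 2 genes. The causes were not tested. The labels number no replicates, so the runs of mouse numbers gave the only matched fit. Signal above background could not be tested without detection calls, which bears most on Fabp12.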
